A study of Mus musculus with 8 samples.

Results

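The cyclic nucleotide phosphodiesterases are the enzymes that break down cAMP and cGMP. They were taken here as all gene symbols made of Pde, a family number from 1 to 11 and a letter from a to d. Of 53655 symbols in the count table, 22 matched. Of these, 17 averaged 1 CPM or more over the 8 libraries (CPM, a gene's counts per 1000000 counts in named genes) and were called detected. Pde4d, Pde8b and Pde9a were chosen by their measured levels in the same comparison of groups that is described here, so their values in it are a description and carry no test. Pde7b, at 1.03 CPM, was the last member inside the detection limit, and Pde2a, at 0.9503 CPM, the first outside it. Of the exonic length of Pde2a, 64.3% is shared with Gm45837 on the same strand. How reads there were counted is not given, so the level of Pde2a may be understated.

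Tuft cells sense luminal compounds and make up a small part of the intestinal epithelium. They were sorted from the small intestine of naive mice that all carried a red reporter allele for the cytokine gene Il25 and a green reporter transgene for Chat, the gene of the enzyme that makes acetylcholine (genotype Il25-RFP/+;Chat-GFP(Tg+)). Cells lacking CD45 and positive for EPCAM and RFP were split into a gate without green signal (Chat-neg, 4 libraries) and a gate with it (Chat-pos, 4 libraries). The gates therefore follow a transgenic reporter and not the protein itself, and no age, sex or strain is given. The labels do not tie libraries to animals, so p-values measure only the spread between these libraries, which may be technical.

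Adenylyl and guanylyl cyclases make cAMP and cGMP, and phosphodiesterases end the signal by hydrolysing them. The families differ in substrate: PDE4, PDE7 and PDE8 act on cAMP, PDE5, PDE6 and PDE9 on cGMP, and PDE1, PDE2, PDE3, PDE10 and PDE11 on both. In taste cells, which share much of their signalling machinery with tuft cells, the G protein gustducin is known to stimulate a phosphodiesterase, and in intestinal epithelium cAMP and cGMP are known to drive fluid secretion.

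The catalytic domain of these enzymes holds a metal-binding motif of histidine and aspartate residues. Its coding sequence is shown because it is what the catalytic members share and Pde6d lacks. It also shows how far paralogs such as Pde8a and Pde8b resemble each other in this stretch. Whether reads were assigned to the wrong paralog was not tested. The 36 coding bases are given 5′ to 3′ on the coding strand from GENCODE M21 on GRCm38, with the codons of the histidine, the aspartate and the next histidine in capitals.
Pde9a: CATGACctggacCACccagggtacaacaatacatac
Pde4d: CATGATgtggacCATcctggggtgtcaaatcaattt
Pde8b: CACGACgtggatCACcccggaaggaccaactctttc
Pde8a: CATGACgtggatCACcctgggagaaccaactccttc
Pde5a: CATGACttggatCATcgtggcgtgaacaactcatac
Pde3b: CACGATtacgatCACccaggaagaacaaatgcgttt

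The stretch of Pde9a lies at chr17:31460230-31461574 on the + strand and spans an intron. Those of Pde4d (chr13:109939313-109939348, +), Pde8b (chr13:95034300-95034335, -), Pde8a (chr7:81324067-81324102, +), Pde5a (chr3:122824966-122825001, +) and Pde3b (chr7:114526921-114526956, +) each lie in 1 coding exon. Pde8b and Pde8a were identical at 31 of the 36 bases. Pde9a matched Pde4d at 22 and Pde8b at 23, and Pde4d matched Pde8b at 21. The motif was found in 12 of 12 coding transcripts of Pde4d, 7 of 11 of Pde9a and 7 of 10 of Pde8b. Neither of the coding transcripts of Pde6d held it.

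Depth differed between the gates. Named genes held 87642 to 1176880 counts in the Chat-neg libraries and 1757401 to 2541955 in the Chat-pos libraries. Chat itself was at 117 ± 22.5 CPM (SD, n = 4) in Chat-neg and 330.5 ± 34.1 CPM in Chat-pos. The sum of 15 tuft cell markers was also higher in Chat-pos, at 25602 to 26922 CPM against 11064 to 19405 CPM. Of the 14 tuft markers tested, 6 were called higher and 1 lower in Chat-pos (edgeR, adjusted p under 0.05). Over all tested genes these shares were 3.62% and 2.87%. Paneth cell markers summed to 58997 and 31824 CPM in Chat-pos replicates 2 and 3, against 491 to 3525 CPM elsewhere. The other marker sums ranged in Chat-neg and Chat-pos from 512 to 5526 and 306 to 1571 CPM for goblet cells, from 21942 to 46172 and 34016 to 55603 CPM for enterocytes, and from 593 to 1407 and 1217 to 1927 CPM for enteroendocrine cells. T cell and leukocyte markers summed to 215 to 473 CPM in Chat-neg and to 11.4 to 14.2 CPM in Chat-pos apart from replicate 2, at 441 CPM. Smooth muscle and fibroblast markers stayed at or under 46.5 CPM, and no listed marker was at 0 in all libraries. In bulk libraries of this kind, a change in the share of a cell type and a change of RNA per cell cannot be told apart.

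Pde9a, a cGMP-specific phosphodiesterase (chr17:31386210-31476310, + strand), was the most abundant member. All CPM values below are scaled with TMM, a correction for library composition. Pde9a was at 151, 132, 204 and 133 CPM in Chat-neg replicates 1 to 4 and at 303, 297, 361 and 308 CPM in Chat-pos replicates 1 to 4. Every Chat-pos library was above every Chat-neg library. The means were 155 ± 33.5 and 317 ± 29.2 CPM (SD over 4 libraries). That is 2.03-fold, or 1.02 ± 0.21 (SE) on the log2 scale. Of its exonic length, 8.3% is shared with 2 genes on the opposite strand, and the libraries do not mark strand, so reads there cannot be told apart.

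Pde4d, a cAMP-specific member with many transcripts from a long gene (chr13:108449948-109953461, + strand), was second. Its levels were 69.8, 61.2, 94.96 and 46.5 CPM in Chat-neg and 141, 130.4, 187 and 149.8 CPM in Chat-pos. The groups did not overlap. The means were 68.1 ± 20.3 and 152 ± 24.7 CPM, a log2 difference of 1.14 ± 0.23, or 2.21-fold.

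Pde8b, a cAMP-specific member of high affinity (chr13:95024454-95250336, - strand), was lower in level with a difference of similar size. It was at 11.6, 14.0, 25.03 and 25.7 CPM in Chat-neg and at 54.1, 48.4, 50.1 and 37.9 CPM in Chat-pos. Again no Chat-neg library reached the lowest Chat-pos library. The means were 19.1 ± 7.30 and 47.6 ± 6.93 CPM, a log2 difference of 1.17 ± 0.30, or 2.25-fold. The first Chat-neg value rests on 1 count, and without that library the differences of Pde9a, Pde4d and Pde8b were 1.02, 1.16 and 1.14. Without both Chat-pos libraries rich in Paneth cell markers they were 1.07, 1.19 and 1.23. Gm48420 on the opposite strand shares 7.6% of the exonic length of Pde8b, and reads there cannot be told apart.

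**Figure D1:**
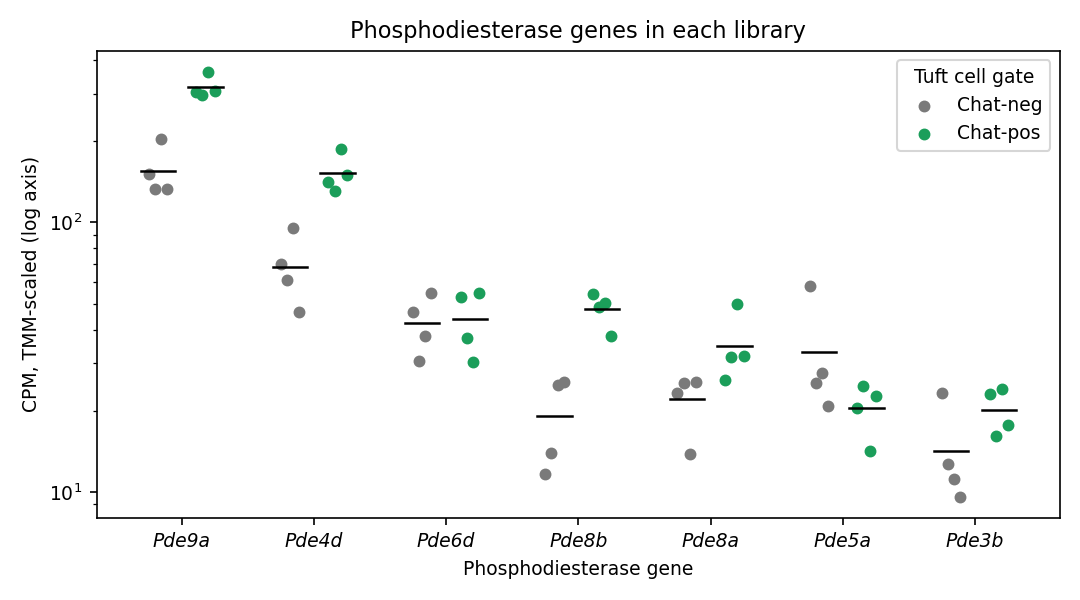
TMM-scaled CPM (vertical log axis) of the 7 tested phosphodiesterase genes in each of 4 Chat-neg (grey) and 4 Chat-pos (green) libraries, with a bar at each group mean. Pde9a, Pde4d, Pde8b and Pde8a have no Chat-neg library above the lowest Chat-pos library, while the groups overlap for Pde6d, Pde5a and Pde3b.

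The differences of these members were set against the tuft cell markers, which moved the same way. Per 1000 CPM of the 15 summed markers, Pde9a was at 7.73 to 13.7 in Chat-neg and 11.3 to 14.1 in Chat-pos, and the log2 ratio of the means fell to 0.29. Pde4d was at 2.70 to 6.31 and 5.03 to 7.31, with a log2 ratio of 0.41. Pde8b was at 0.828 to 1.49 and 1.44 to 2.01, with a log2 ratio of 0.64. On this scale the groups overlapped for all 3 genes. Sh2d6 and Rgs13, both called higher in Chat-pos, made up 29.1% and 11.2% of the marker sum. A second scale used only the 7 markers that were not called between the gates. It was added after the result with all 15 was known, and leaving out markers by their call in this same contrast favours larger differences. On it Pde9a was at 18.8 to 31.0 and 31.2 to 45.0 (log2 ratio 0.63), Pde4d at 6.58 to 14.3 and 14.5 to 23.4 (0.76), and Pde8b at 2.00 to 3.63 and 4.63 to 6.25 (0.96), with no overlap. The size of the difference and the separation of the groups thus depended on which markers set the scale, and the part of the marker level in the result was not tested beyond these values.

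**Figure D2:**
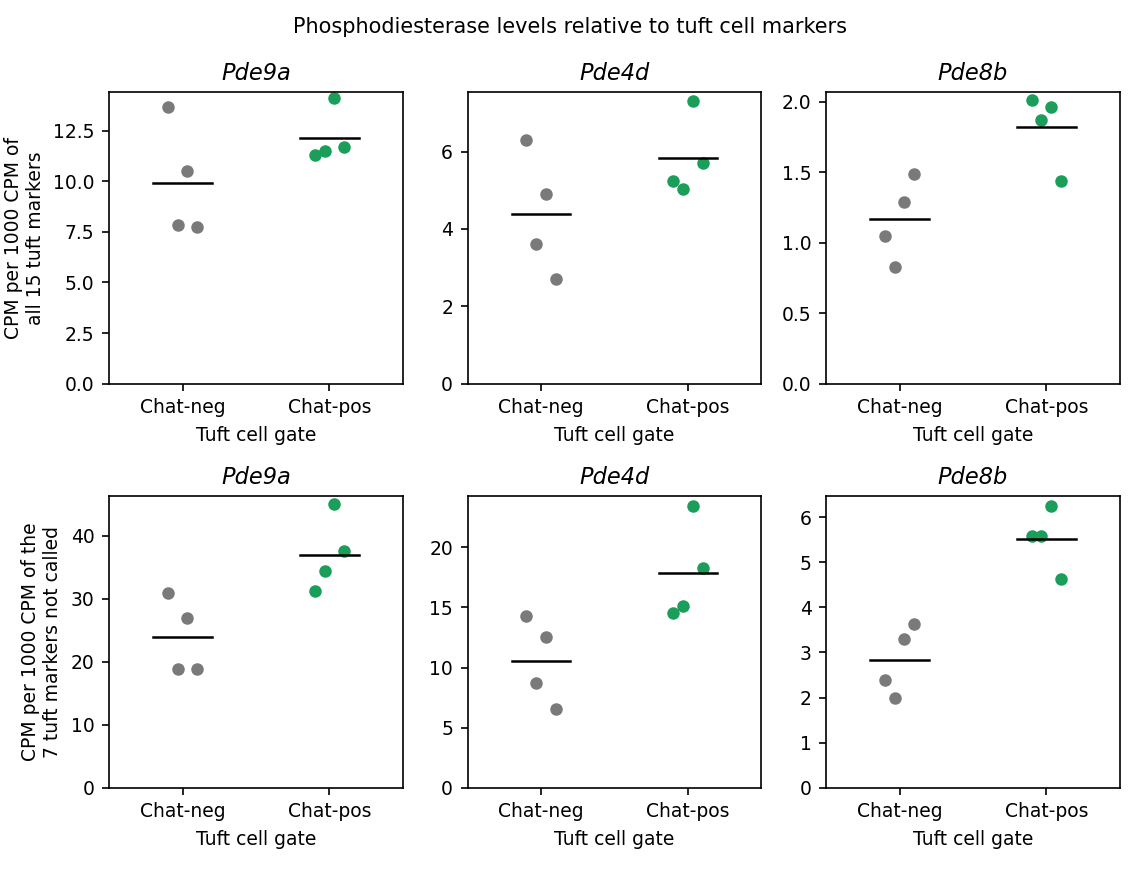
Level of Pde9a, Pde4d and Pde8b per 1000 CPM of summed tuft cell markers (vertical axes) in 4 Chat-neg (grey) and 4 Chat-pos (green) libraries, with bars at the group means. With all 15 markers (upper row) the groups overlap for each gene. With the 7 markers not called between the gates (lower row), a scale chosen after the first was seen, they do not.

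Over all genes, 579 of 8919 tested genes (6.49%) passed a Benjamini-Hochberg adjusted p of 0.05 in edgeR's quasi-likelihood test, 3.62% higher and 2.87% lower in Chat-pos. Besides Pde9a, Pde4d and Pde8b, 4 members had enough counts to be tested (Pde8a, Pde6d, Pde5a and Pde3b), and 0 of them were called. limma-voom also called 0 of these 4, DESeq2 called 0 of the 3 for which it gave an adjusted p (not Pde3b), and 1 of the 4, Pde8a, had an unadjusted p under 0.05. Of the 7 tested members 6 had a positive difference, with a median of 0.75 on the log2 scale against -0.019 over all tested genes. That median includes the 3 genes picked for their difference.

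Pde8a, the closest relative of Pde8b and likewise specific for cAMP (chr7:81213596-81334533, + strand), was at 23.3, 25.5, 13.8 and 25.7 CPM in Chat-neg and at 26.1, 31.8, 49.6 and 32.0 CPM in Chat-pos. The groups were apart by a narrow margin. The log2 difference was 0.72 ± 0.33 (95% interval 0.08 to 1.36, adjusted p = 0.200 in edgeR's quasi-likelihood test). A difference of the size seen for Pde8b lies inside that interval.

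Pde6d encodes a chaperone of prenylated proteins that was first found with the photoreceptor enzyme PDE6 and has no catalytic domain. It lies at chr1:86542994-86582629 on the - strand. Its levels were 46.5, 30.6, 38.0 and 54.6 CPM in Chat-neg and 52.9, 37.2, 30.2 and 54.7 CPM in Chat-pos. Both groups covered nearly the same range. The log2 difference was 0.09 ± 0.28 (95% interval -0.46 to 0.64, adjusted p = 0.902, edgeR).

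Pde5a, the cGMP-specific target of sildenafil (chr3:122728947-122859374, + strand), was the tested member with a negative difference. It was at 58.2, 25.5, 27.6 and 20.9 CPM in Chat-neg and at 20.5, 24.6, 14.2 and 22.7 CPM in Chat-pos. The groups overlapped, and the highest value rests on 5 counts. The log2 difference was -0.41 ± 0.35 (95% interval -1.09 to 0.26, adjusted p = 0.550, edgeR). Pde3b, which acts on cAMP and is inhibited by cGMP (chr7:114415281-114539251, + strand), was at 23.3, 12.7, 11.2 and 9.63 CPM in Chat-neg and at 23.0, 16.1, 24.1 and 17.7 CPM in Chat-pos. Chat-neg replicate 1, on 2 counts, was the one Chat-neg library inside the Chat-pos range. The log2 difference was 0.75 ± 0.41 (95% interval -0.05 to 1.54, adjusted p = 0.299, edgeR).

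The direction depended on the scale for Pde8a, Pde3b and Pde6d, while Pde5a stayed negative. Relative to all 15 tuft cell markers, the log2 ratio of the means was -0.12 for Pde8a, -0.37 for Pde3b and -0.74 for Pde6d, with overlapping groups. For Pde5a it was -1.58, with 1.21 to 5.26 in Chat-neg and 0.554 to 0.951 in Chat-pos, which did not overlap. Relative to the 7 markers not called, the ratios were 0.25, 0 and -0.40 with overlap, and -1.22 for Pde5a without overlap. These ratios carry no test.

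The order of the members changed when levels were divided by length. Per kilobase of all annotated exons, Pde9a was at 43.9 CPM per kb in Chat-neg and 89.6 in Chat-pos. Pde6d came second at 19.5 and 20.1 CPM per kb, above Pde4d at 5.67 and 12.7. The lowest single library of Pde9a, at 37.4, was above the highest of Pde6d, at 25.1. In Chat-neg, Pde4d was followed by Pde8a at 5.45, Pde5a at 3.36, Pde8b at 3.25 and Pde3b at 1.56 CPM per kb, and each of these neighbours overlapped the next between libraries. In Chat-pos, Pde6d and Pde4d overlapped, as did Pde4d, Pde8a at 8.62 and Pde8b at 8.10 in turn. Pde3b at 2.22 and Pde5a at 2.09 overlapped each other and lay below the lowest library of Pde8b, at 6.44. Per kilobase of the longest coding transcript Pde4d stood at 16.2 and 36.2 and Pde6d at 36.6 and 37.7, so Pde4d came after Pde9a and Pde6d by either length.

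Shares of counts within pairs of members do not depend on library scaling. Pde9a made up 68.4%, 68.4%, 68.2% and 74.1% of the summed counts of Pde9a and Pde4d in Chat-neg, and its share was 68.2%, 69.5%, 65.8% and 67.2% in Chat-pos. The exact Clopper-Pearson 95% intervals of all 8 libraries overlapped, from 43.4% to 87.4% in Chat-neg replicate 1 to 64.4% to 70.0% in Chat-pos replicate 4. These intervals cover counting error only, since reads without molecular identifiers are not independent molecules. Both genes were picked for being higher in Chat-pos, so a similar share in both gates follows in part from that choice. Pde5a made up 27.8%, 16.1%, 11.9% and 13.5% of the counts of Pde5a and Pde9a in Chat-neg, and its share was 6.35%, 7.65%, 3.78% and 6.88% in Chat-pos. Here the groups did not overlap, with Pde9a, chosen for its difference, in the denominator. Pde8b made up 45.8 ± 14.4% of the counts of Pde8b and Pde8a in Chat-neg and 58.0 ± 7.50% in Chat-pos, which overlapped.

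**Figure D3:**
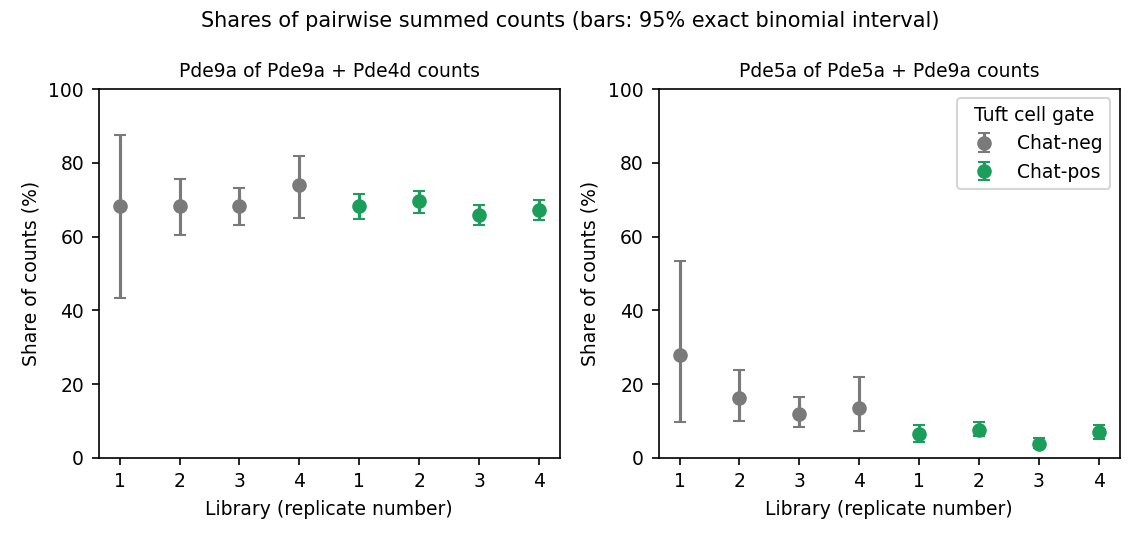
Share of Pde9a in the summed counts of Pde9a and Pde4d (left) and of Pde5a in those of Pde5a and Pde9a (right), in percent, for Chat-neg (grey) and Chat-pos (green) replicates 1 to 4, with 95% exact binomial intervals. The left shares run from 65.8% to 74.1% in both gates together, and the right ones from 11.9% to 27.8% in Chat-neg and from 3.78% to 7.65% in Chat-pos.

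By substrate, the 8 detected cAMP-specific members summed to 145 ± 38.8 CPM in Chat-neg and 241 ± 33.9 CPM in Chat-pos. The 3 detected cGMP-specific members, without Pde6d, summed to 193 ± 40.7 and 339.7 ± 25.4 CPM. These rises were carried by the genes picked for their difference. Without Pde4d, Pde8b and Pde9a, the other 6 cAMP-specific members summed to 58.0 ± 39.4 CPM in Chat-neg and 41.3 ± 9.15 CPM in Chat-pos. The other 2 cGMP-specific members summed to 37.4 ± 21.8 and 22.5 ± 3.88 CPM. In both cases the groups overlapped, and the Chat-neg mean was raised by the shallow replicate 1, at 116 and 69.8 CPM. The remaining Chat-neg libraries were at 31.1 to 46.5 CPM and at 24.1 to 30.2 CPM. The 5 detected members that act on both summed to 41.2 ± 26.9 and 27.8 ± 7.88 CPM, with 81.4 CPM in Chat-neg replicate 1. Pde4d, Pde8b and Pde9a together held 42.6% to 72.3% of the family's counts in Chat-neg and 77.6% to 81.2% in Chat-pos. The lowest share is 20 of 47 counts in Chat-neg replicate 1. These genes were picked for their difference, and the family includes members detected only through Chat-neg. A higher share in Chat-pos follows from those choices, so nothing is read from it.

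The other 10 detected members had 3 to 48 counts over all libraries and were too low to be tested. Their low counts were compared with a background taken from 1734 olfactory and vomeronasal receptor genes, which were assumed to be silent here. Reads on those receptors came to 418.1 to 4609.7 CPM in Chat-neg and 162.1 to 307.3 CPM in Chat-pos. Spread over exon length, they predict 13.2 counts on Pde1c, 8.2 on Pde7b and 3.9 on Pde1a, where 15, 8 and 3 were observed, so these 3 genes were at the background. Pde3a (48 counts) and Pde4b (41), known from cardiac and inflammatory cells, stood above their predicted 8.4 and 6.9 counts. Pde11a (41), Pde7a (23), Pde4a (23), Pde6a (21) and Pde4c (8) had 3.4, 5.1, 5.0, 3.1 and 3.7 predicted.

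Pde7a, a cAMP-specific member known from T cells, was at 46.5, 1.27, 5.18 and 11.2 CPM in Chat-neg, on 18 counts, and at 1.24, 0.448, 0.945 and 0 CPM in Chat-pos, on 5 counts. All Chat-pos values were below the lowest Chat-neg value. T cell and leukocyte markers were lower in 3 of the 4 Chat-pos libraries. In Chat-pos replicate 2 they summed to 441 CPM, with Pde7a at 0.448 CPM. The part of these markers in the Pde7a values was not tested. Pde11a, which acts on both nucleotides, ranged from 3.82 to 34.9 CPM in Chat-neg and from 2.49 to 3.78 CPM in Chat-pos. Of these 10 members 5 (Pde7a, Pde1c, Pde4c, Pde1a and Pde7b) had a Chat-pos mean under 1 CPM and were detected only through Chat-neg, which fixes the direction of their difference. In Chat-neg replicate 1, 1 count is worth 11.4 CPM, against 0.393 CPM in Chat-pos replicate 4, and its receptor background was the highest. Without Chat-neg replicate 1, Pde4c and Pde1a fell below the detection limit and Pde2a rose above it.

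**Figure D4:**
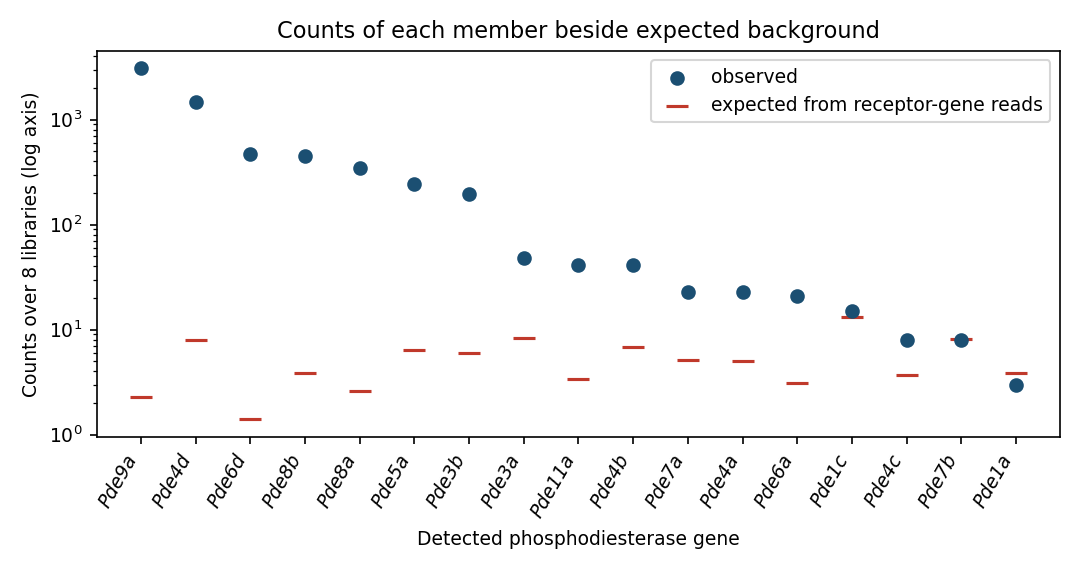
Counts over 8 libraries (vertical log axis) of the 17 detected members (points), beside the counts predicted for their exon length from reads on olfactory and vomeronasal receptor genes (red dashes). The points of the 7 tested members, from 197 to 3081 counts, lie far above the dashes, and those of Pde1c, Pde7b and Pde1a lie at them.

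Among the 17 detected members, 4 had all Chat-pos libraries above all Chat-neg libraries (Pde9a, Pde4d, Pde8b and Pde8a), against 4.68% of all genes at or above the detection limit. Another 4 had the reverse (Pde7a, Pde11a, Pde1c and Pde4c), against 4.47% of all genes, and 9 overlapped. Nothing is read from either count. The first contains the 3 genes picked for this pattern. In the second, Pde7a, Pde1c and Pde4c were detected only through Chat-neg, and Pde1c was at the background. The 5 members that were not detected, Pde2a, Pde1b, Pde6b, Pde10a and Pde6c, had 2 to 10 counts each.

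Genes with the most similar pattern were sought among the 8006 tested genes that averaged 10 CPM or more, by Pearson's r of log2(CPM + 1) over the 8 libraries. All libraries of both gates enter, so r mostly follows the difference between the gates. For Pde9a these were Slc30a7, a zinc transporter (r = 0.994), the predicted gene Gm11496 (0.991) and Il17rb, a subunit of the IL-25 receptor (0.984). Pde4d was next (0.982). For Pde4d they were Eps8l3 (0.986), Slc30a7 (0.986) and Gm11496 (0.985), with Pde9a in place 4. For Pde8b they were the sialyltransferase gene St3gal6 (0.981), the peroxisomal membrane protein gene Pxmp4 (0.972) and the ubiquitin ligase subunit gene Fbxo9 (0.972). Pde9a was in place 237 for Pde8b (0.879) and Pde4d in place 685 (0.785). Since all 3 genes were picked for their difference between the gates, these values describe them and show no relation between them.

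The other genes of cyclic nucleotide signalling were taken from 7 lists with 95 genes in the table, of which 46 were tested. In all, 3 were higher and 1 was lower in Chat-pos, with a median log2 difference of -0.01 against -0.019 over all genes. These 4 of 46 genes stand beside the 6.49% called over all genes.

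Among G protein alpha subunits that act on cyclases or phosphodiesterases, 2 of 5 tested were called higher in Chat-pos, beside 3.62% of all tested genes. Gnat3, the alpha subunit of gustducin, was at 69.8, 66.2, 82.9 and 69.0 CPM in Chat-neg and 404, 321, 286 and 360.2 CPM in Chat-pos. Each Chat-pos library was far above the Chat-neg range. This was a log2 difference of 2.24 ± 0.22 (adjusted p = 1.68e-07, edgeR). Gnai1, an inhibitory subunit, was at 27.6 ± 16.5 and 57.3 ± 21.8 CPM, with overlapping groups and a log2 difference of 1.35 ± 0.38 (adjusted p = 0.0358, edgeR). That call was lost in 6 of 17 alternatives, among them the fits without Chat-neg replicate 1, 2 or 3 and without Chat-pos replicate 1 or 4. Gnai2, the most abundant subunit, had a difference of 0.22 ± 0.20.

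Of the enzymes that make the nucleotides, 0 of 4 tested adenylyl cyclases and 0 of 2 tested guanylyl cyclases were called, and 0 of these 6 had an unadjusted p under 0.05. Adcy5 was at 103 and 88.3 CPM on average (log2 difference -0.16 ± 0.21), and Adcy6 at 46.8 ± 5.48 and 48.1 ± 18.6 CPM (0.03 ± 0.27). Gucy2c, the receptor for guanylin peptides and the guanylyl cyclase with the most counts, was at 296 ± 70.0 and 357 ± 47.4 CPM (0.25 ± 0.21). Gucy1a2, a subunit of the soluble enzyme, was at 4.54 ± 5.42 and 8.75 ± 3.01 CPM (0.49 ± 0.60).

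Of 7 tested effectors, 1 was called lower in Chat-pos, beside 2.87% of all tested genes. Prkg2, the cGMP-dependent kinase that acts on the chloride channel CFTR in intestine, was at 23.3, 36.9, 24.2 and 17.6 CPM in Chat-neg and 4.98, 8.06, 14.6 and 8.84 CPM in Chat-pos. The groups did not overlap. Prkg2 differed by -1.49 ± 0.42 on the log2 scale (adjusted p = 0.0264, edgeR), and the call was lost in 8 of 16 alternatives, among them the fits without Chat-neg replicate 2 or 3 and without Chat-pos replicate 1, 2 or 4. The regulatory subunits of protein kinase A differed little, with 0.08 ± 0.19 for Prkar1a and -0.12 ± 0.22 for Prkar2a.

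Among the phosphodiesterase partners and kinase A anchors, of which 12 were tested, the most abundant were scaffold genes. Akap9 (log2 difference 0.32 ± 0.21) and Ezr (0.20 ± 0.20) were not called. Of the cyclic nucleotide exporters only Abcc5 was tested (-0.60 ± 0.33), and it was not called.

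Of 15 tested CREB factors and cAMP response genes 0 were called, and 1 had an unadjusted p under 0.05. That was the immediate-early gene Junb, at 73.9 ± 26.1 and 130.3 ± 7.13 CPM (0.68 ± 0.21, adjusted p = 0.0508, edgeR), which passed in 4 of 17 alternatives. Fos, the other abundant gene of the list, was at 196 ± 125 and 143 ± 61.1 CPM (-0.53 ± 0.47).

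**Figure D5:**
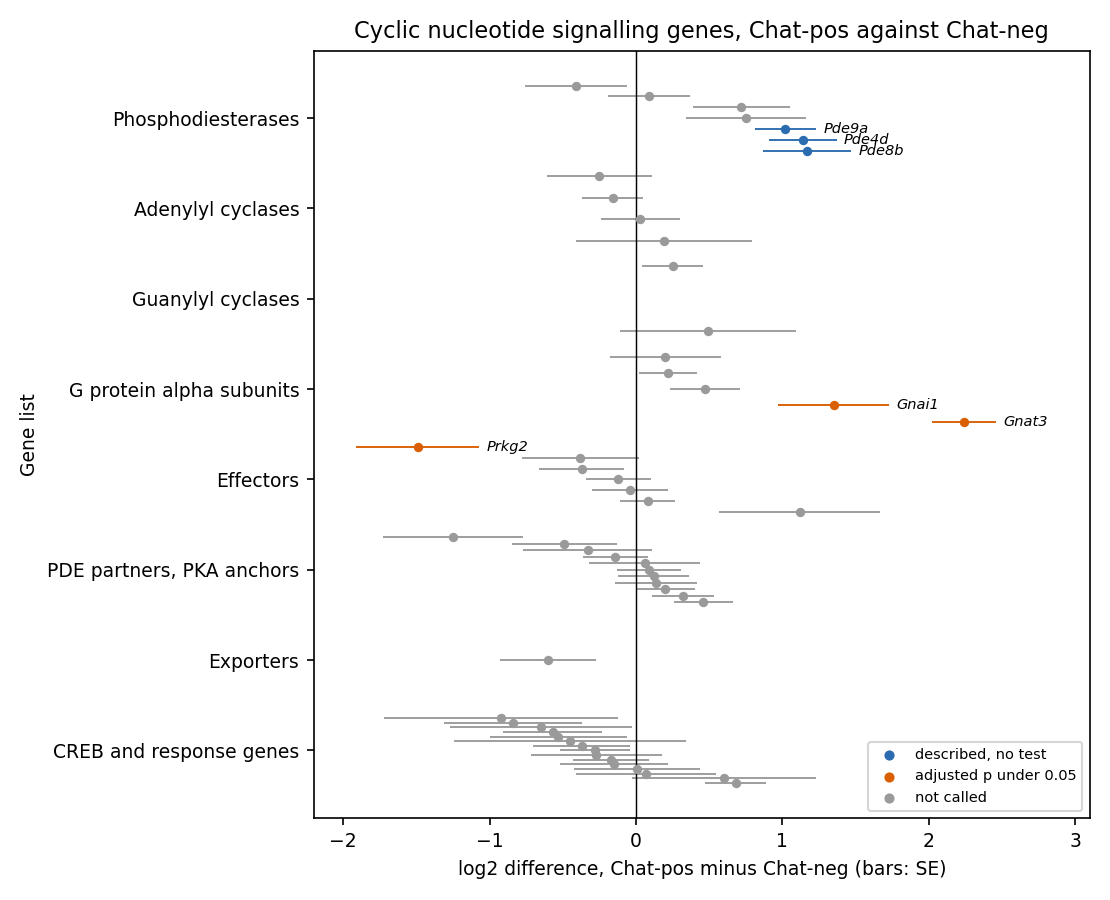
Difference between Chat-pos and Chat-neg (log2, horizontal axis, bars are SE) of the tested genes but 1, by gene list (vertical axis). Orange points passed an adjusted p of 0.05 (Gnat3 and Gnai1 higher, Prkg2 lower), blue points are the described genes Pde9a, Pde4d and Pde8b, and grey points were not called.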

How the data were processed

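RNA of sorted tuft cells was made into SMARTer v4 and Nextera XT libraries and sequenced as single reads, per the labels' protocols. Such libraries mark no strand and carry no molecular identifiers. The authors deposited raw counts for each gene symbol. Per the submitters' processing notes, reads were placed on GRCm38. Which aligner, counter and annotation were used is not given in the sources used here. Of 53806 rows, 36 had no gene name and held 58.6% to 88.4% of a library's counts. They were left out of library sizes and tests, and rows of the same symbol were summed. GENCODE M21 supplied positions and lengths for 52834 symbols.

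The test was edgeR 4.0.16's robust quasi-likelihood fit (R 4.3.3) on the group, after filterByExpr and TMM scaling, with Benjamini-Hochberg adjustment over all tested genes at 0.05. Printed CPM are TMM-scaled and detection used unscaled CPM. The common coefficient of variation was 28.1%. Within a group, each library differed from each other one beyond counting error. The fit was tested on simulated data.

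Named genes were all detected members, of each pathway list the called genes and the 2 most abundant tested, and for Pde4d, Pde8b and Pde9a the 3 genes of most similar pattern. The members and lists were chosen with earlier results of these data known. Both scalings to tuft cell markers were added after the data had been seen. Alternatives were RLE and total count scaling, no count filter, a filter of 5 CPM, DESeq2 1.42.0, limma 3.58.1 voom, a replicate block, subtraction of background reads, and fits without each library or without Chat-pos replicates 2 and 3. Binomial intervals used scipy 1.17.1. Results for 2 listed genes are not reported here, though counts over the lists include them.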

Additional observations from a re-analysis of the deposited data

Results flagged for a closer look

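Values far from the other libraries of their group were sought in 34 groups of 4 libraries, by the gap to the nearest value over the range of the group. Pde1a in Chat-pos, at 0 in all libraries, had no range and could not be examined. For normally distributed values of equal precision, chance alone flags about 1 in 20 groups of 4 libraries. Libraries here differ in depth and some values rest on single counts, so that rate need not hold. In all, 6 values were flagged, 4 of them in Chat-neg replicate 1, the shallowest library. Pde9a in Chat-pos replicate 3 was at 360.6 CPM, with the next value at 308 CPM. Pde11a in Chat-neg replicate 1 was at 34.9 CPM, with the next at 6.04 CPM. Pde1c, Pde4c and Pde1a were each at 11.6 CPM in Chat-neg replicate 1, which is a single count, with the next values at 3.45, 1.60 and 1.60 CPM. Pde7b in Chat-pos replicate 1 was at 0.622 CPM, a single count, with the other Chat-pos libraries at 0.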

How the results depend on the processing

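Pde9a, Pde4d and Pde8b were picked for their difference, so a kept sign follows in part from that choice. Under the 17 alternatives other than the marker scales the log2 differences of Pde9a (0.90 to 1.25), Pde4d (1.00 to 1.47) and Pde8b (1.00 to 1.36) kept their sign. Pde8a (0.49 to 0.92, adjusted p from 0.139 to 0.517), Pde5a (-0.53 to -0.21) and Pde3b (0.64 to 1.01, 16 alternatives) kept theirs too and were not called, and Pde6d ran from -0.04 to 0.50. Relative to all 15 tuft cell markers, the differences of Pde9a, Pde4d and Pde8b were 0.29, 0.41 and 0.64, and relative to the 7 markers not called 0.63, 0.76 and 0.96. On the first scale Pde6d, Pde8a and Pde3b turned to -0.74, -0.12 and -0.37 and Pde5a went to -1.58. On the second Pde6d was at -0.40, Pde8a at 0.25, Pde3b at 0 and Pde5a at -1.22. Both scales were added after seeing the data, the second after the first. With no filter on low counts 1 member was called, Pde7a, which was lower by edgeR (log2 difference -3.59 ± 1.05, adjusted p = 0.0456) on 23 counts, and the other alternatives called 0. Pde7a was detected only through Chat-neg, which fixes the direction of its difference, so nothing is read from this call. Leaving out 1 library at a time gave 248 to 669 called genes, the lowest being 248 and 359 when Chat-neg replicate 2 or 4 was dropped and 371 when Chat-pos replicate 3 was. It gave 1 to 4 pathway genes, 1 when Chat-neg replicate 2 was dropped and 2 when replicate 3 of Chat-neg or replicates 1 or 4 of Chat-pos were. Without both Chat-pos replicates 2 and 3 these were 326 and 2. Total count scaling called 225 higher and 380 lower, no filter 344 and 143, against 323 and 256. Subtracting background reads gave 467 and 212, limma-voom 355 and 402, and leaving out both Paneth-rich libraries 240 and 86. The replicate block called 520 genes in place of 579, 3 pathway genes in place of 4, and 0 members. Deviations of libraries with the same number correlated at -0.023 to 0.053, and those with different numbers at -0.076 to 0.099. The numbers were not taken as pairs, but in libraries this shallow such correlations cannot show whether gates came from the same animals. Depth limits the 10 untested members, of 3 to 48 counts each. The causes of these changes were not tested.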
